A study of Mus musculus with 3 samples.

Results

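Of the 60930 study probes on 3 mouse arrays, 732 carry names that start with mouselincRNA (649 probes) or MM9LINCRNAEXON (83 probes), and these 732 are described here. The rule that picks them reads the name alone and no measured value. Each has 1 spot on each array, so a value below is a single reading. Names are given without the ending _P1, which all 732 share. The arrays measured total RNA of dorsal root ganglion neurons cultured from C57BL/6 mice of 5 to 9 days. After 5 days in culture the neurons were kept for 24 h with 1 mM melatonin, with 8-M-PDOT at 100 µM, which activates melatonin receptor 1B, or with vehicle, which was 1% ethanol in saline. The labels name ethanol for the vehicle culture alone and do not say how many mice gave each culture. The 3 arrays lay on 1 slide. Each condition had 1 array, so no difference between conditions has a replicate check, no test between conditions was possible, and the melatonin and 8-M-PDOT doses differ.

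Long intergenic non-coding RNAs (lincRNAs) are transcripts made from the stretches between protein-coding genes that have no long open reading frame. Many are capped, spliced and polyadenylated like messenger RNAs, are present at low levels and are limited to few cell types, and some act in the nucleus on chromatin or on neighbouring genes. Dorsal root ganglion neurons are the sensory neurons whose fibres carry touch, temperature and pain signals from the body to the spinal cord, and in culture they are usually accompanied by glia and fibroblasts. Melatonin receptors are G protein-coupled receptors of the cell membrane.

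The files pair 15 study probes with a RefSeq accession, none of them a member, and none of the 32 cell type markers chosen for neurons, glia, fibroblasts, macrophages and endothelium was among their genes. The labelled cell type was therefore not checked here, no member is given a gene name, position or function, and no probe sequence is printed because the files used here hold none. In bulk RNA of this kind, fewer cells of a type and less RNA per cell cannot be told apart.

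Signals are processed intensities, after background subtraction within each array, and scaled values are log2 signals minus the 75th percentile of their array. That percentile was 454 units with melatonin, 328 with 8-M-PDOT and 477 with vehicle, and no study probe was saturated. A reading counted as detected when the scanner software called it well above background. The lowest detected signals were 15.7, 14.4 and 19.3 units on the melatonin, 8-M-PDOT and vehicle arrays. Of 15 negative probes, 13 were detected on no array, with signals of 3.07 to 4.39 units over the 3 arrays. MM9NEGATIVE016 was detected on all 3, at 22.3, 21.6 and 21.1 units, and MM9NEGATIVE017 on the treated arrays alone, at 18.7 and 16.5 units against 15.3 units with vehicle.

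Fewer than 1 in 2 members were detected on any single array. Of 731 members, 325 (44.5%) were detected with melatonin, 348 (47.6%) with 8-M-PDOT and 327 (44.7%) with vehicle. Over all 60846 study probes kept, the shares were 74.1%, 74.0% and 73.3%. The remaining member, mouselincRNA1223-, was left out because its spot was flagged as non-uniform on the vehicle array, where it read 2295 units, against 50.7 units with melatonin and 28.3 units with 8-M-PDOT. The members brighter than every negative probe numbered 294, 309 and 312 on the melatonin, 8-M-PDOT and vehicle arrays, so by this stricter rule the vehicle array had the highest count and not the 8-M-PDOT array.

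Over the 3 arrays together, 416 members (56.9%) were detected at least once and 269 (36.8%) on all 3, and 315 were never detected. For all study probes, 80.0% were detected at least once and 67.8% on all 3. Detection on 1 array alone was found for 17 members with melatonin, 62 with 8-M-PDOT and 22 with vehicle, which are 2.33%, 8.48% and 3.01% of the members. Among all study probes these shares were 1.41%, 3.58% and 1.45%. The MM9LINCRNAEXON probes were detected more often than the mouselincRNA probes on each array, in 49 of 83 against 276 of 648 with melatonin, 52 against 296 with 8-M-PDOT, and 50 against 277 with vehicle. Human-named lincRNA probes had shares of 42.0%, 41.7% and 41.3%, near those of the mouselincRNA probes (42.6%, 45.7% and 42.7%).

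**Figure D1:**
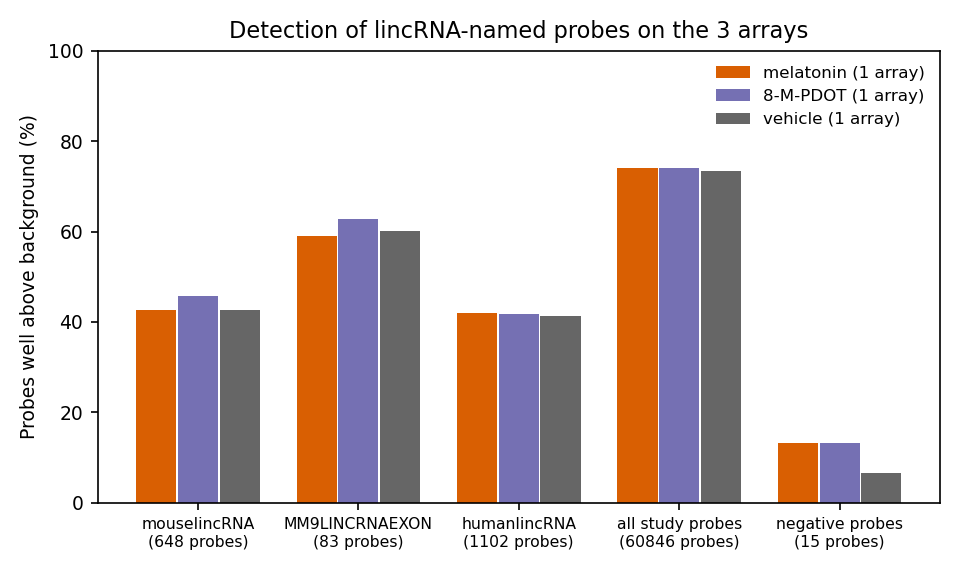
Percent of probes called well above background by the scanner software (y axis) on the melatonin, 8-M-PDOT and vehicle arrays (1 array each, bars from left to right) for 5 sets of probes. The mouselincRNA bars stand at 42.6%, 45.7% and 42.7%, below the bars of all study probes at 74.1%, 74.0% and 73.3%.

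Most members were dim. Their mean scaled signal over the 3 arrays had a median of -4.96 (quartiles -6.69 and -3.06), and 22.8% of all study probes lay below that median. The median over the other 60115 study probes was -2.40. The mouselincRNA members had a median of -5.02 and the MM9LINCRNAEXON members of -4.03. Only 37 members (5.06%) were above the 75th percentile of their arrays on average, against 24.8% of the other study probes. A probe's signal depends on its own binding as well as on the RNA, so these figures describe probes and do not rank transcripts.

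**Figure D2:**
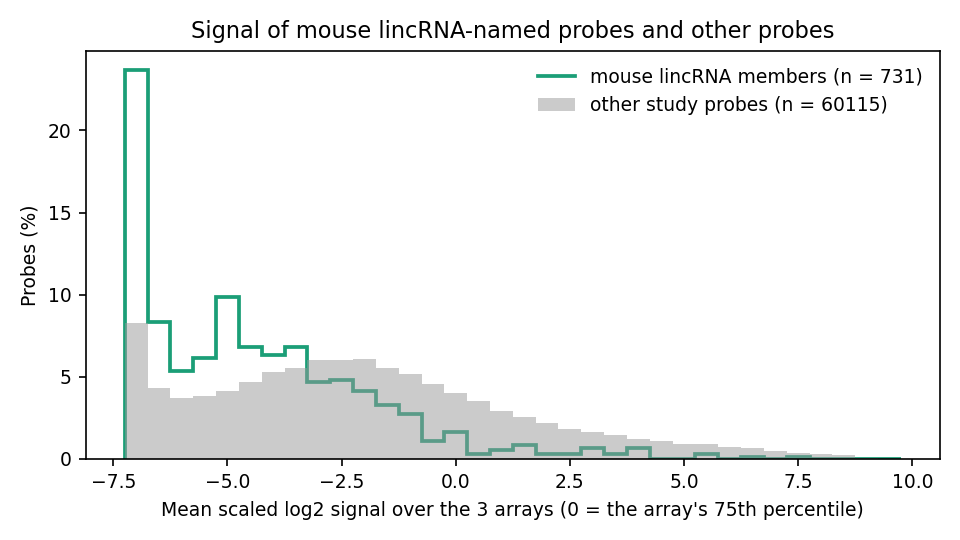
Share of probes (percent, y axis) by mean scaled log2 signal over the 3 arrays (x axis, bins of 0.5), for the 731 mouse lincRNA members (line) and the 60115 other study probes (filled). The members' median is -4.96 and that of the other probes -2.40, and both sets have a tail of bright probes to the right.

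A handful of bright members carried most of the summed signal. The 5 brightest on each array held 62.1% of the members' summed signal with melatonin, 62.6% with 8-M-PDOT and 60.5% with vehicle. The brightest was mouselincRNA0161-, which read 72158 units with melatonin and 79792 units with 8-M-PDOT, against 63076 units with vehicle. Its readings lay within 2-fold of vehicle on both treated arrays, with scaled log2 ratios of 0.27 and 0.88. Next came mouselincRNA1606-, with 29053 units on the melatonin array and 47915 units on the 8-M-PDOT array, against 33186 units on the vehicle array. It was near vehicle with melatonin (log2 ratio -0.12) and 2.10-fold higher with 8-M-PDOT (1.07), a call that was lost in 5 of 9 alternatives, at 0.53 without scaling. In such counts, alternatives that change only the filter repeat the main value of a member detected on both arrays, so they cannot alter its call.

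Some other bright members stayed within 2-fold of vehicle after scaling. The probe mouselincRNA0543- read 18731 and 25022 units with melatonin and 8-M-PDOT, against 19726 units with vehicle, and mouselincRNA0344- read 6449 and 5781 units, against 5888 units. Among the MM9LINCRNAEXON probes, MM9LINCRNAEXON10664+ was brightest, at 21062 units with melatonin and 19536 units with 8-M-PDOT, against 23894 units with vehicle. Neither compound moved MM9LINCRNAEXON10490+ past 2-fold either, at 4992 and 5384 units against 5311 units. These 4 probes had log2 ratios between -0.11 and 0.88 on the treated arrays. The bright MM9LINCRNAEXON11711+ was 2.47-fold higher with 8-M-PDOT, at 10378 units against 6108 units with vehicle (log2 ratio 1.31, and 0.76 without scaling), and within 2-fold with melatonin at 6935 units.

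The comparison of melatonin with vehicle asked which members differed at least 2-fold, the threshold named in the series design, after melatonin. Few did. Of 354 members detected on at least 1 of the 2 arrays, 5 (1.41%) were higher by this threshold with melatonin and 7 (1.98%) were lower, where 6.09% and 5.14% of all 46504 probes so measured were. Among 493 human-named lincRNA probes so measured, 2.23% were higher and 2.03% lower. The low shares were therefore not seen in the mouse-named probes alone. The median log2 ratio of the members was -0.09 (quartiles -0.35 and 0.13), and that of all measured probes was -0.06. Without scaling the split was 4 higher and 11 lower, against 5.4% and 6.01% of all measured probes. After background modelling with quantile normalization it was 3 and 1, against 2.93% and 2.4%, and with the 75th percentile in place of quantiles it was 1 and 1, against 2.95% each way. Background modelling here adds 50 units to every signal, so it pulls the ratios of dim probes toward no difference.

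Under the other rules for a call given here, the shares of members past the threshold with melatonin were also below those of all probes. Among members detected on both arrays 3 were higher and 6 lower of 298, against 5.71% and 4.88% of all probes so detected. Among those also brighter than every negative probe 3 were higher and 6 lower of 279, against 5.72% and 4.8% of all probes. At 1.5-fold 22 members were higher and 38 lower of 354, against 12.9% and 13.8% of all measured probes. At 4-fold none was higher and 1 lower, against 1.16% and 0.845%. With no filter on detection 30 of 731 were higher and 36 lower, against 7.2% and 6.11% of all probes.

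The members higher with melatonin were led among the bright ones by mouselincRNA0735+. It read 1598 units with melatonin, against 631 units with vehicle, and was 2.66-fold higher (log2 ratio 1.41). The probe mouselincRNA0013+ read 1939 units with melatonin, against 980 units with vehicle, and was 2.08-fold higher (1.06). The call of mouselincRNA0735+ held in all 9 alternatives at 2-fold, where those that change only the filter repeat its main value. That of mouselincRNA0013+ was lost in 2 of the 9, at 0.99 after background modelling with the 75th percentile and 0.99 without scaling.

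The other 3 higher members were dim on the vehicle array. Probe mouselincRNA0491- read 54.2 units with melatonin and an undetected 17.3 units with vehicle, which makes it at least 2.95-fold higher. Likewise mouselincRNA1348+ read 45.6 units with melatonin, while the vehicle reading of 3.85 units was undetected, a difference of at least 2.48-fold. Probe mouselincRNA0733-, named after its values were seen to complete the 5, was detected on both arrays at 53.7 and 22.9 units and was 2.47-fold higher, with a vehicle reading close to that of the brightest negative probe. These 3 calls were lost under background modelling with either scaling. At signals this dim the added 50 units shrink such ratios strongly, so the loss is no separate check.

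Among the 7 members lower with melatonin, mouselincRNA1135- was the one that stayed past 2-fold in all 9 alternatives, and the other 6 were under it after background modelling with either scaling. It read 153 units with melatonin, against 388 units with vehicle, and was 2.41-fold lower. The furthest from vehicle was mouselincRNA1453-, which was undetected with melatonin at 10.3 units, against 98.8 units with vehicle, and was at least 5.98-fold lower. Of its family, MM9LINCRNAEXON10136+ was the only MM9LINCRNAEXON member past 2-fold with melatonin in either direction. It read 44.8 units, against 103 units with vehicle, and was 2.19-fold lower. The other 4, named to complete the 7 after their values were seen, were mouselincRNA0797+, mouselincRNA0072- and mouselincRNA0843+, with log2 ratios of -1.82, -1.60 and -1.38, and mouselincRNA0484+, just past 2-fold at 38.5 units against 81.2 units with vehicle. All 4 were detected on both arrays, at no more than 118 units. At such signals the 50 units added by background modelling shrink the ratios.

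With 8-M-PDOT, members past the threshold were mostly higher than with vehicle. Their share of higher calls lay nearer to that of all probes than their share of lower calls. Both comparisons use the same vehicle array, so they are not independent. Of 399 members detected on at least 1 of the 2 arrays, 82 (20.6%) were at least 2-fold higher with 8-M-PDOT and 21 (5.26%) at least 2-fold lower. Of all 47822 probes so measured, 17.1% were higher and 15.8% lower, and of 531 human-named lincRNA probes 18.3% and 7.16%, so the low share of lower calls was not seen in the mouse-named probes alone. The members' median log2 ratio was 0.20 (quartiles -0.27 and 0.84), and that of all measured probes was -0.04. By family, 68 of 340 mouselincRNA and 14 of 59 MM9LINCRNAEXON members were higher, and 18 and 3 were lower. By the sign in the name, 38 of the 82 higher members were named + and 44 named -, and of the 21 lower ones 12 were named + and 9 named -.

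These counts rest in part on scaling and on readings near background. The 75th percentile of the 8-M-PDOT array was 0.54 log2 units below that of the vehicle array, and without scaling the split was 57 higher and 65 lower, against 10.2% and 32.2% of all measured probes. The median of all measured probes was then -0.59 and that of the members -0.34, a gap of 0.25 that scaling by 1 value per array cannot change. After background modelling with quantile normalization, 45 members were higher and 6 lower, against 10.7% and 10.2% of all measured probes, and the medians were 0.02 for the members and -0.09 for all probes, a gap of 0.10. Of the 82 higher members, 43 were detected on both arrays and 39 on the 8-M-PDOT array alone. Of the 8171 higher calls over all measured probes, 6318 were detected on both arrays. The members' higher calls thus rested more often on an undetected vehicle reading. Where both arrays detected the probe, 43 (15.6%) of 276 members were higher and 15 (5.43%) lower, against 15.1% and 16.6% of 41765 probes.

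Under the other rules for a call given here, the share of lower members with 8-M-PDOT was again below that of all probes. With background modelling and the 75th percentile 61 (15.3%) were higher and 5 (1.25%) lower, against 11.6% and 10.4% of all measured probes. Among 259 members brighter than every negative probe on both arrays 43 (16.6%) were higher and 15 (5.79%) lower, against 15.5% and 16.6% of all probes. At 1.5-fold 130 were higher and 43 lower of 399, against 26.8% and 27.2%, and at 4-fold 44 and 4, against 6.99% and 4.36%. With no filter on detection 140 (19.2%) of 731 were higher and 62 (8.48%) lower, against 17.9% and 15.2% of all probes.

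**Figure D3:**
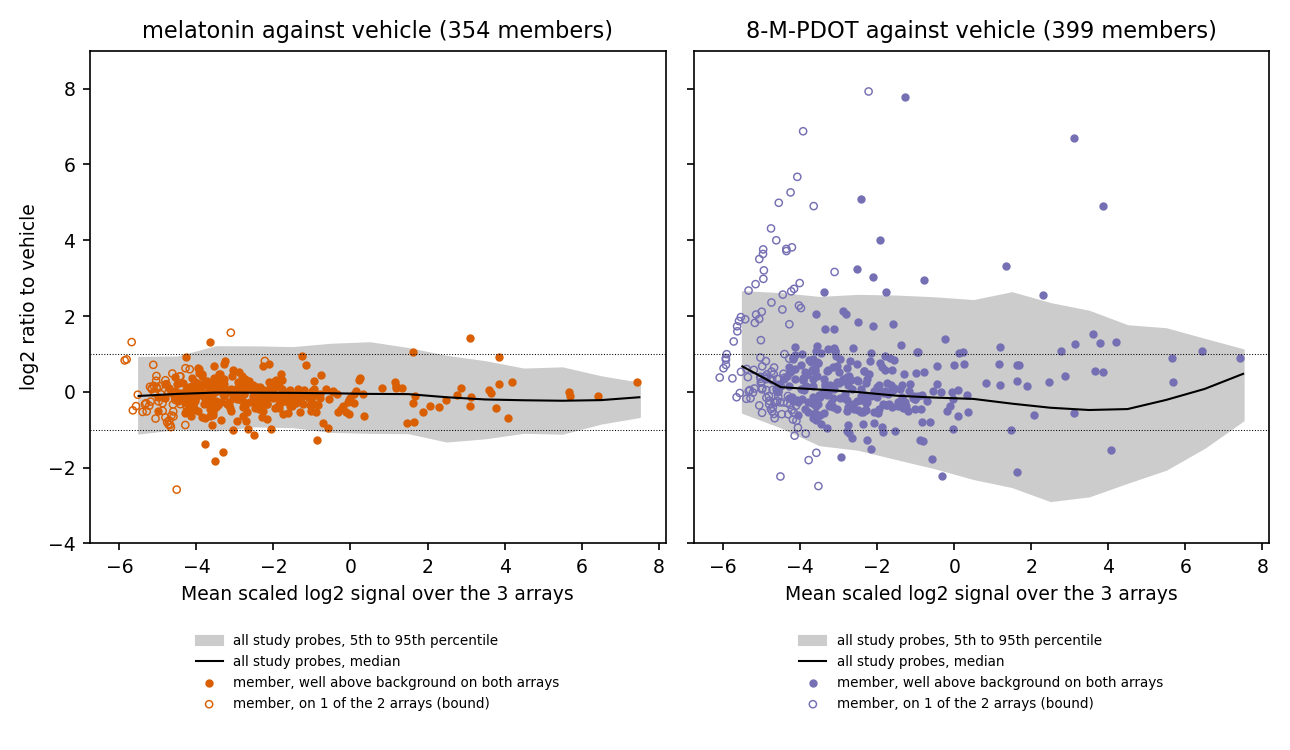
Log2 ratio to vehicle (y axis) against mean scaled log2 signal over the 3 arrays (x axis) for the members, with melatonin (left, 354 members) and with 8-M-PDOT (right, 399 members). Filled points were detected on both arrays and open points on 1, where the ratio is a bound. The line and band give the median and the 5th to 95th percentile of all study probes in bins of 1 log2 unit, and dotted lines mark 2-fold. With melatonin 5 members lie at or above the upper dotted line and with 8-M-PDOT 82 do, 24 of them at least 8-fold higher.

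Brightness and direction were also read together, in 4 bands bounded by the quartiles of the measured members. With 8-M-PDOT, 22 of 87 members in the dimmest band were higher and 1 lower, and the shares over all probes in that band were 25.3% higher and 2.42% lower. In the brightest band, 21 of 104 members were higher and 9 lower, with shares over all probes of 15.7% and 21.4%. In that band the median log2 ratio was 0.09 over the members and -0.18 over all probes. With melatonin the brightest band held 2 higher and 1 lower of 104 members, and the shares over all probes were 5.94% and 5.59%.

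The furthest differences were on the 8-M-PDOT array, where 24 members were at least 8-fold higher than with vehicle and 0 at least 8-fold lower, against 3.18% and 1.1% of all measured probes. Most of the 24 were undetected with vehicle and were measured only through the 8-M-PDOT array, where they are high. Undetected 8-M-PDOT readings were raised to 14.4 units, which limits how far a dim member can be lower. The bright probe mouselincRNA0735+ read 44754 units with 8-M-PDOT, against 631 units with vehicle, and was 103-fold higher (log2 ratio 6.69). It had 1598 units with melatonin, so its treated readings both lay above vehicle. A second bright probe, mouselincRNA1235-, read 37140 units with 8-M-PDOT, against 1808 units with vehicle, and was 29.9-fold higher (4.90). Its melatonin reading of 3228 units was 1.88-fold above vehicle (0.91), and under 2-fold in 6 of 9 alternatives.

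Other members had high readings with 8-M-PDOT and dim ones with vehicle. The probe mouselincRNA0664- read 4010 units with 8-M-PDOT, 48.2 units with melatonin and 26.4 units with vehicle, and was 221-fold higher with 8-M-PDOT than with vehicle. MM9LINCRNAEXON11641+ read 621 units with 8-M-PDOT and 27.6 units with melatonin, against 26.7 units with vehicle, and was 33.8-fold higher. Likewise mouselincRNA0750+ read 508 units with 8-M-PDOT, against 46.1 units with vehicle, and was 16.1-fold higher. All 3 stayed past 2-fold after background modelling with quantile normalization, at log2 ratios of 5.96, 3.30 and 2.80.

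Of the 39 higher members that were detected with 8-M-PDOT and not with vehicle, 2 had the highest bounds. The probe mouselincRNA0907- read 3221 units with 8-M-PDOT and an undetected 6.71 units with vehicle, so it was at least 243-fold higher, while melatonin gave 32.3 units. The probe mouselincRNA0869- read 1556 units with 8-M-PDOT, against undetected readings of 3.40 units with melatonin and 3.85 units with vehicle, and was at least 117-fold higher than with vehicle. The 39 together had 8-M-PDOT signals of 33.3 to 3221 units with a median of 87.2, and vehicle signals of 3.85 to 17.6 units with a median of 4.67.

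The MM9LINCRNAEXON members higher with 8-M-PDOT included bright probes. MM9LINCRNAEXON11125+ read 3802 units with 8-M-PDOT, 559 units with melatonin and 551 units with vehicle, so that 8-M-PDOT alone stood apart, 10.03-fold above vehicle. MM9LINCRNAEXON11712- read 290 units with 8-M-PDOT and 59.2 units with melatonin, against 51.6 units with vehicle, and was 8.17-fold higher. MM9LINCRNAEXON10569-, named after its values were seen, read 5732 units with 8-M-PDOT, against 1430 units with vehicle, and was 5.83-fold higher. Its melatonin reading was 1035 units, within 2-fold of vehicle. A control outside the members moved as well: the spike-in probe E1A_r60_a107 had a log2 ratio of 8.05 with 8-M-PDOT. Of 5 measured spike-in probes of its family, 3 read higher by 2-fold or more with 8-M-PDOT. Of the 3, E1A_r60_a97 counts only because its undetected vehicle reading was not raised to the lowest detected signal, as the members' were. The part of the spike-in probes in the members' differences was not tested.

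Fewer members were lower with 8-M-PDOT, and the differences were smaller. Raising undetected readings to the lowest detected signal leaves dim probes less room to be lower than higher. In the dimmest brightness band, 25.3% of all probes were higher and 2.42% lower, so such a split is not particular to the members there. In the brightest band 8.65% of the members were lower, against 21.4% of all probes. Where both arrays detected the probe, so that no reading was raised, 5.43% of the members were lower, against 16.6% of all probes. The part of raised readings in the low count was not tested. The brightest of the lower members was mouselincRNA0772-, with 3205 units with 8-M-PDOT and 7947 units with melatonin, against 13433 units with vehicle. It was 2.88-fold lower with 8-M-PDOT and within 2-fold with melatonin (log2 ratio -0.69). The probe mouselincRNA1592+ read 465 units with 8-M-PDOT and 1585 units with melatonin, against 2908 units with vehicle, and was 4.30-fold lower with 8-M-PDOT (-2.10). In the same way mouselincRNA0538+ read 106 units with 8-M-PDOT and 474 units with melatonin, against 720 units with vehicle, 4.67-fold lower with 8-M-PDOT. In each of these 3 probes the melatonin reading lay between those of 8-M-PDOT and vehicle.

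The probes mouselincRNA1671- and mouselincRNA0627- were 3.40-fold and 2.47-fold lower with 8-M-PDOT, at 121 and 107 units against 599.9 and 383 units with vehicle. With background modelling and quantile normalization, these 5 and mouselincRNA0797+ were the 6 members that stayed past 2-fold. With the 75th percentile in place of quantiles, mouselincRNA0627- and mouselincRNA0797+ were under it, at -0.95 and -0.86. On the 8-M-PDOT array mouselincRNA0797+ was undetected at 12.4 units, against 118 units with vehicle, which makes it at least 5.60-fold lower. Similarly mouselincRNA1453- was undetected at 5.87 units, against 98.8 units, and was at least 4.70-fold lower. Of the MM9LINCRNAEXON members, MM9LINCRNAEXON10171+ was 3.30-fold lower, at 22.9 units against 110 units with vehicle. MM9LINCRNAEXON11274+ and MM9LINCRNAEXON11564+ were undetected with 8-M-PDOT and at least 3.05-fold and 2.14-fold lower than with vehicle. The calls of mouselincRNA1453- and of these 3 MM9LINCRNAEXON probes were lost under background modelling with either scaling, where the added 50 units shrink dim ratios.

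**Figure D4:**
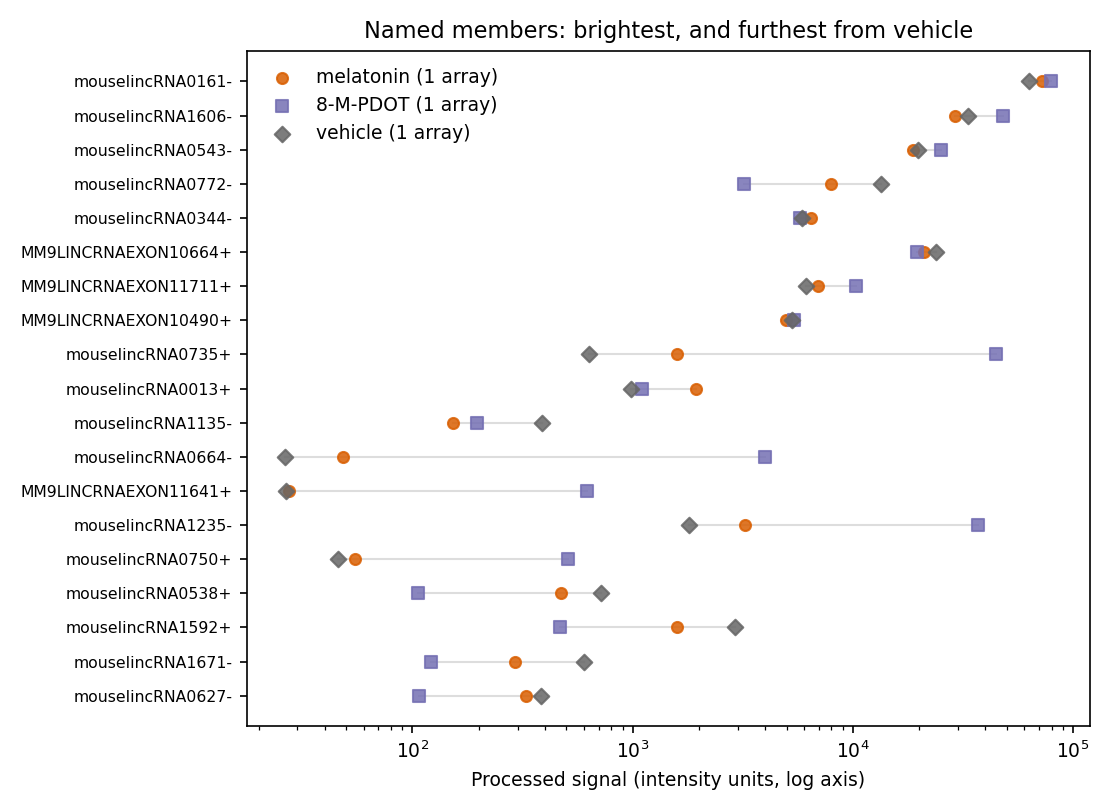
Processed signal (intensity units, log x axis) of 19 named members on the melatonin, 8-M-PDOT and vehicle arrays (1 array each). The first 8 are the brightest of each family. The others lie furthest from vehicle among members detected on both arrays that stayed past 2-fold after background modelling with quantile normalization. The 8-M-PDOT square of mouselincRNA0735+ stands at 44754 units and its vehicle diamond at 631 units, while the 3 symbols of MM9LINCRNAEXON10490+ lie between 4992 and 5384 units.

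Each name carries a number and a sign, + or -, whose meaning none of the sources used here gives. The 731 members hold 403 numbers in their 2 families, and 328 numbers have a kept probe of each sign. Of these 328 pairs, both probes were detected on at least 1 array in 104, the + probe alone in 75, the - probe alone in 86, and neither in 63. In 46 pairs the + probe was detected on all 3 arrays and the - probe on none, and in 59 pairs the reverse held. The brightest member, mouselincRNA0161-, belongs to such a pair, because mouselincRNA0161+, looked up after its partner was named, was undetected on every array, at 10.03 units with melatonin and 3.97 units with 8-M-PDOT, against 9.63 units with vehicle.

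Changes were counted in pairs with a ratio for each probe. With 8-M-PDOT, 96 pairs could be compared, and in 57 of them at least 1 probe was past 2-fold. In 53 of the 57 it was 1 probe only, 26 times the + probe and 27 times the - probe. In 3 both passed in the same direction and in 1 in opposite directions. Among the 42 pairs in which both probes were detected on both arrays, 19 had 1 probe past 2-fold, 1 had both and 22 had neither. With melatonin, 73 pairs could be compared, of which 5 had 1 probe past 2-fold and none had both. Taken singly, 20.6% of members were higher and 5.26% lower with 8-M-PDOT, against 17.1% and 15.8% of all measured probes. No pairs were counted among other probes. Whether partners passed together more or less often than unrelated probes was not tested.

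Single readings are given for the 3 pairs with the highest mean signal. MM9LINCRNAEXON10664- was 2.61-fold higher with 8-M-PDOT, at 582 units against 325 units with vehicle, while MM9LINCRNAEXON10664+ had a log2 ratio of 0.25. The probe mouselincRNA0706+ read 9033 units with 8-M-PDOT, against 5407 units with vehicle, 2.43-fold higher, and mouselincRNA0706- read 277 units, against 631 units, a log2 ratio of -0.65. Of the third pair, mouselincRNA0543+ was 2.85-fold lower with 8-M-PDOT, at 42.6 units against 177 units with vehicle, while mouselincRNA0543- had a log2 ratio of 0.88. None of these 3 calls held in all 9 alternatives. Without scaling MM9LINCRNAEXON10664- and mouselincRNA0706+ were at 0.84 and 0.74, and after background modelling mouselincRNA0543+ was at -0.69 with the 75th percentile and -0.92 with quantile normalization. With melatonin all 6 probes were within 2-fold of vehicle, with log2 ratios of -0.70 to 0.00.

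The 4 pairs in which both probes passed 2-fold with 8-M-PDOT are named after their values were seen. They are number 1606, where mouselincRNA1606+ read 509 units with 8-M-PDOT and was undetected with vehicle (at least 38.4-fold higher), number 1035, where the + probe was undetected with vehicle, and MM9LINCRNAEXON11712, all higher for both signs. In number 538 the probes lay on opposite sides of vehicle, since mouselincRNA0538- was detected with 8-M-PDOT at 59.7 units and undetected with vehicle at 10.2 units, at least 4.51-fold higher. In each of these 4 pairs at least 1 of the calls was lost after background modelling with quantile normalization.

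**Figure D5:**
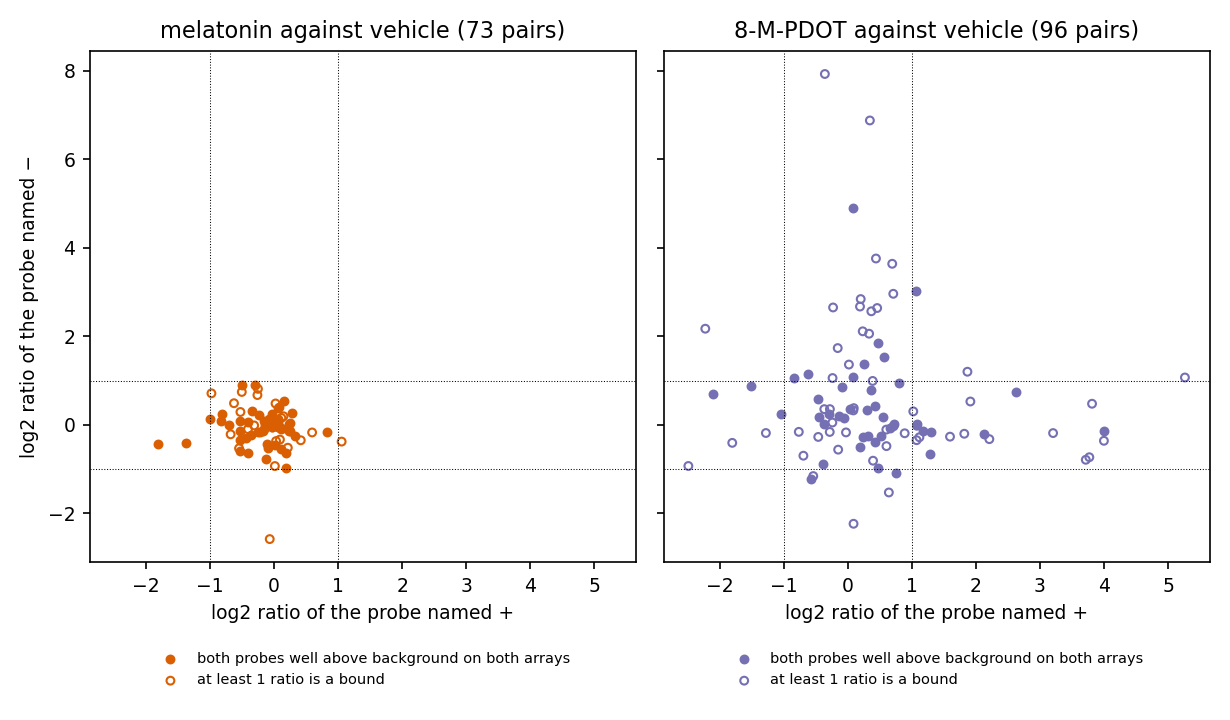
Log2 ratio to vehicle of the probe named + (x axis) and of the probe named - (y axis) with the same number, with melatonin (left, 73 pairs) and 8-M-PDOT (right, 96 pairs). Filled points have both probes detected on both arrays, open points include a bound, and dotted lines mark 2-fold. With 8-M-PDOT 53 pairs have 1 probe past 2-fold and 4 pairs have both.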

How the data were processed

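Cy3-labelled total RNA was hybridised to Arraystar mouse arrays read in 1 colour, per the labels. The authors deposited an intensity per spot. The submitters' processing notes name Agilent Feature Extraction 11.0.1.1. The files also hold other deposited columns, the flags used for detection and outliers. A table of log2 values was deposited by the authors, with array medians of 6.273, 6.273 and 6.272 for melatonin, 8-M-PDOT and vehicle. Against the log2 processed signals its columns had slopes of 1.006, 1.016 and 0.977 across detected probes, so it is on a log2 scale with arrays set to 1 level; the method is not stated in the sources used here. The random variance model and paired test of the series design cannot be run with 1 array per condition.

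Log2 processed signals were averaged over spots and the 75th percentile of the array was subtracted (Python 3.11.15, pandas 2.3.3). Controls, 15 negative probes and spots flagged as outliers were left out, which removed 69 further probes. Undetected values were raised to the lowest detected signal of their array, so such ratios are bounds. Background modelling was normexp (limma 3.58.1 in R 4.3.3, offset 50) on median spot and background signals, since the files hold no mean signal as planned. Counts of calls were checked on simulated data with known changes, planted only in probes detected on all 3 arrays. Calls that rest on an undetected reading were not checked in this way. The simulated noise was about the spread between spots, with no variation between cultures. The check therefore does not show how many of the calls are noise. Members were named by rule: the brightest, those furthest from vehicle in each direction that also passed after background modelling, those detected on 1 array with the furthest bounds, MM9LINCRNAEXON probes past 2-fold, and the brightest pairs. The rule for the members and the lists was set with earlier results of these data known. The number of arrays limits the precision. Alternatives covered scaling, background, filter and threshold. A change of filter alone leaves the ratio of a member detected on both arrays as it was. The deposited table gave members nearly the same ratios as quantile normalization, so the alternatives are not independent checks.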

Additional observations from a re-analysis of the deposited data

Results flagged for a closer look

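Spike-in control probes, which belong to no comparison of the report, stood at least 2-fold above the vehicle array, 1 of 4 measured with melatonin and 3 of 5 with 8-M-PDOT. These counts leave undetected readings as they are. E1A_r60_a107, with 35 spots, read 84.6 units with melatonin and 6939 units with 8-M-PDOT, against 38.1 units with vehicle, and its scaled log2 ratios were 1.22 and 8.05. E1A_r60_n11 read 41.2 units with 8-M-PDOT, against 27.7 units with vehicle, a log2 ratio of 1.11. E1A_r60_a97 was detected with 8-M-PDOT alone, at 22.0 units, against undetected readings of 3.69 units with melatonin and 3.89 units with vehicle. Its log2 ratio of 3.04 over vehicle rests on that undetected reading. With the reading raised to the lowest detected vehicle signal of 19.3 units, as for the members, the probe was under 2-fold. The family has 10 probes.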

How the results depend on the processing

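No paired analysis was possible because there is 1 array in each condition, which also leaves no array that could be left out. No scaling and the comparison with negative probes were added after seeing the data. Each member has 1 spot, so asking that all its spots be detected could not change the detection counts. Members brighter than every negative probe numbered 294, 309 and 312 with melatonin, 8-M-PDOT and vehicle, against 325, 348 and 327 detected, and the highest count passed to vehicle. The brightness of the members among all probes stayed close under the alternatives run for it. In all, 37 recomputed values stayed close and 33 moved, and the 37 include the detection counts that could not change. With melatonin (5 higher, 7 lower, median -0.09), background modelling with the 75th percentile gave 1 and 1 with a median of -0.031, and with quantile normalization 3 and 1. No filter gave 30 and 36, a 1.5-fold threshold 22 and 38, a 4-fold threshold 0 and 1, and no scaling 11 lower with a median of -0.16. Members detected on both arrays, and those also brighter than every negative probe, gave 3 higher in each case. With 8-M-PDOT (82 higher, 21 lower, median 0.20), background modelling with the 75th percentile gave 5 lower with a median of 0.30, and with quantile normalization 45 and 6 with a median of 0.016. No filter gave 140 and 62, a 1.5-fold threshold 130 and 43, a 4-fold threshold 44 and 4, and no scaling 65 lower with a median of -0.34. Members detected on both arrays, and those brighter than every negative probe, gave 43 higher in each case. The median was 0.061 under median scaling and 0.028 under quantile normalization and in the deposited table. Apart from changes of filter or threshold, the cause was not tested. Of the named ratios past 2-fold, 2 of 8 with melatonin and 14 of 25 with 8-M-PDOT stayed past it in every alternative that gave a value, and none changed sign. Part of this list was chosen for passing after background modelling with quantile normalization, so these shares are no independent check. Filters that need both arrays give no value for members detected on 1, and repeat the main value for the others. Signal over background limits the dim members. The 50 units added by background modelling shrink their ratios, so a dim call lost there is no separate check.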
